A study of Homo sapiens with 12 samples.

Results

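The metallothioneins MT1E, MT1F, MT1G, MT1X and MT2A, their transcription factor MTF1 and the zinc exporter SLC30A1 were followed across HEK293T cells given a CRISPR guide with or without Cas9. These 7 genes were taken by symbol from the 26485 genes of the 2 deposited tables. HEK293T is a human embryonic kidney cell line. The cells were transfected with polyethylenimine (2 μg of DNA and 6 μl of reagent per well of a plate) with plasmids of the PX330-GFP type. The 4 groups of 3 libraries were PX330-GFP plasmids with the 6T sgRNA and Cas9, with the 6T sgRNA and no Cas9, with the Luciferase sgRNA and Cas9, and with the Luciferase sgRNA and no Cas9. All groups thus shared the cell line, the transfection and the GFP plasmid type, and no untransfected cells were analysed here. The labels do not give the target of the 6T sgRNA, the share of cells that took up plasmid, or whether replicates were separate cultures. The p-values therefore measure only the spread between these libraries, which may be technical. Each deposited table sets a condition A against a condition B for one sgRNA, with nothing in its headers to tell which of A and B carried Cas9. The order may also differ from one table to the other. Differences are given as B relative to A.

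Metallothioneins are small cysteine-rich proteins that bind zinc and copper and take up toxic metals such as cadmium. When free zinc rises, the zinc-finger protein MTF1 binds metal response elements in the promoters of metallothionein genes and of SLC30A1 and activates them. SLC30A1 moves zinc out of the cell through the plasma membrane, so that storage and export rise together. Kidney is among the tissues known for high metallothionein levels, and cell lines often express only some genes of the family.

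The 250 bases before the RefSeq start (GRCh38.p14) were in the reference table for 4 of the 7 genes, MT1X, MT2A, MTF1 and SLC30A1. The core of the metal response element was searched on both strands as TGCACNC or TGCGCNC, and matches are in capitals, on the minus strand as their reverse complement. MT2A and MT1X are shown as the 2 most abundant metallothioneins in these cells, MT1H as a neighbour without a read, and SLC30A1 as the exporter. The windows lie at chr16:56608334-56608583 (plus strand) for MT2A, chr16:56682220-56682469 (plus strand) for MT1X, chr16:56669564-56669813 (plus strand) for MT1H and chr1:211579162-211579411 (minus strand) for SLC30A1.
MT2A: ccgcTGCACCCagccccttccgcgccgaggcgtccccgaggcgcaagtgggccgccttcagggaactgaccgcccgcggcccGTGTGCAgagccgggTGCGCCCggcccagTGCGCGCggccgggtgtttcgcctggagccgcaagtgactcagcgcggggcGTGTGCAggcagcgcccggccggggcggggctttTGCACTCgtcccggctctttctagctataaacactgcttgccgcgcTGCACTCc
MT1X: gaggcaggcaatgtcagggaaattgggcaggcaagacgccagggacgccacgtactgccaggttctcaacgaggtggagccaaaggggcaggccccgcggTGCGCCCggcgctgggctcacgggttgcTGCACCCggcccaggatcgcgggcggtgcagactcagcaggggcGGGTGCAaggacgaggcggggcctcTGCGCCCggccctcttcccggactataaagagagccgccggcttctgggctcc
MT1H: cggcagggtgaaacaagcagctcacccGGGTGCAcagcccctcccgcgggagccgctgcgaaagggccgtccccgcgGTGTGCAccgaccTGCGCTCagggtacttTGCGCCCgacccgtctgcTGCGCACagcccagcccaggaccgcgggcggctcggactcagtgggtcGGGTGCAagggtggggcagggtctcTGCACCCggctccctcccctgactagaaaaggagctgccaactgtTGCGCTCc
SLC30A1: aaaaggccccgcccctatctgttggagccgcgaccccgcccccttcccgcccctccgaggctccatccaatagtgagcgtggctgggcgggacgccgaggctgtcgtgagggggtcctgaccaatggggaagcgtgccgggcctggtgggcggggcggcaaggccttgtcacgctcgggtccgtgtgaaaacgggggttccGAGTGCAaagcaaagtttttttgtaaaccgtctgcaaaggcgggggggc

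MT2A held 7 matches, MT1X 4 and SLC30A1 1, none of them overlapping another, and MTF1 held 0. Of all 35116 promoters in the table, 24.8% held at least 1 match, 0.37% at least 4 and 0.0313% at least 7. MT1H, listed at 0 reads in all 12 libraries, held 8 matches, which 0.0171% of promoters reached. MT1B and MT4, also at 0 reads, held 3 each, a number reached by 1.58% of promoters. Of the family, only MT2A, MT1X, MT1H, MT1B and MT4 had a window in the reference table. Among these, MT1H without reads held the most matches, while MT2A and MT1X held more than MT1B and MT4. MT1F, which had reads, and the other family genes were not searched. A match is a description of the letters, not of binding. GENCODE places the first base of MT2A and of MT1X further upstream than RefSeq does, so these windows overlap annotated transcripts.

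Only some of the family was expressed. The deposited values are mean read counts after scaling by DESeq size factors, called normalized reads here. The whole reads of each library were recovered from them, as described under the processing. The libraries of a condition are numbered 1 to 3 by size factor, with no link to the labels' replicate numbers. Of 16 metallothionein genes and pseudogenes in the tables, 11 had 0 reads in every library: MT1A, MT1B, MT1E, MT1H, MT1M, MT1L, MT1JP, MT1DP, MT1IP, MT3 and MT4. MT1G had 1 read, in library B1 of the 6T table, and MT1HL1, on chromosome 1, had 2, both in library A3 of the Luciferase table. MT1CP was not analysed here. The 12 libraries together held 147702225 reads on genes, so 0 reads in all of them allows up to 3, or 0.0203 RPM of gene reads (counting error only). Within 1 library, 3 reads ran from 0.0787 RPM (Luciferase B3) to 0.511 RPM (Luciferase A1).

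The silent and the expressed genes lie side by side. The cluster spans 119.1 kb on chromosome 16, from 56565049 to 56684196 (GRCh38, GENCODE), and holds 16 annotated family genes. MT2A lies at 56608199 to 56609497 on the plus strand, and MT1E, with no read, lies at 56625475 to 56627112 on the same strand, with the silent pseudogene MT1L between them. MT1F, with reads, lies at 56657694 to 56660698 on the plus strand. MT1X lies at 56682424 to 56684196 on the plus strand. Between MT1F and MT1X lie MT1G, at 56666731 to 56668065 on the minus strand, and the silent MT1H and MT1IP. MTF1 lies on the minus strand of chromosome 1 at 37809567 to 37859620, and SLC30A1 on the same strand at 211571568 to 211578742.

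**Figure D1:**
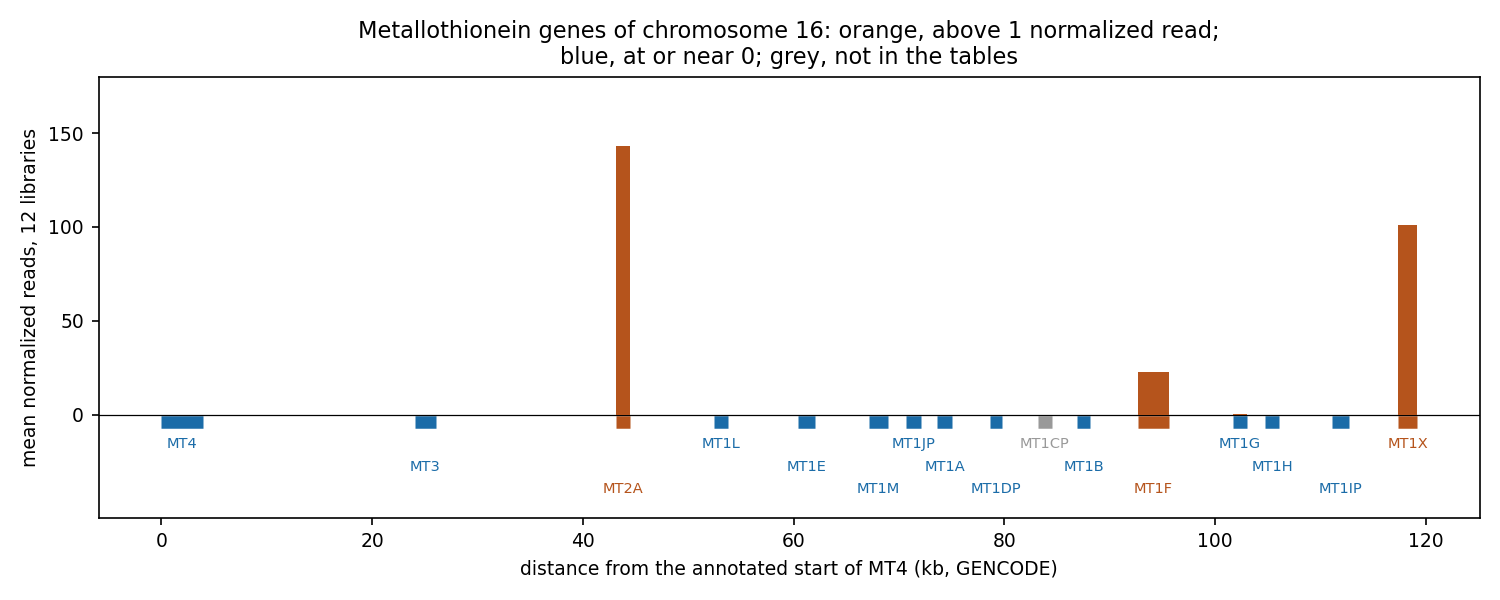
Metallothionein genes of chromosome 16 by distance from the annotated start of MT4 (x axis, kb), with the mean normalized reads over 12 libraries (y axis). MT2A, MT1X and MT1F carry the reads, and the genes between them are at or near 0.

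Family members resemble one another, and HTSeq leaves out reads that align to more than 1 place. Such reads made up 19.4% and 19.9% of all listed reads in conditions A and B of the 6T table, and 24.6% and 22.6% in the Luciferase table. Of the 50-base stretches of MT1E transcripts, 10.6% also occur in other genes, as do 14.3% for MT1G, 4.88% for MT2A and 3.59% for MT1F, and no 100-base stretch of these 4 does. For MT1X, 50.8% of 100-base stretches are shared with AC026461.1, an annotated gene that overlaps it on the same strand. AC026461.1 is not a row of the tables, and how the counting treated this overlap is not given in the sources used here, so the level of MT1X is uncertain. MTF1 overlaps AL929472.4 on the opposite strand, and use of strand in the counting is not stated.

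Reads per library differed between groups. Gene reads ranged from 6357376 to 8262163 in condition A and 6650889 to 8287932 in condition B of the 6T table, from 5871468 to 8242600 in Luciferase condition A, and from 19387444 to 38139055 in Luciferase condition B. Condition and depth thus cannot be told apart in the Luciferase table, nor sgRNA and depth between the tables in condition B. Markers of the HEK293 line were present, 6 of 7 with a mean of 10 or more (PAX8 below) and a summed level of 5698 to 7661 normalized reads. Of 8 kidney tubule and glomerulus markers, 2 reached a mean of 10 (AQP1 and LRP2) and 2 were at 0. Of 4 endothelial markers, 1 reached 10 (KDR), as did 4 of 6 fibroblast markers (COL1A1, COL3A1, LUM and PDGFRA).

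MT2A, the member with the most normalized reads per kb of annotated exons, had 110 ± 17.9 (mean ± SD over 12 libraries). MT1X followed with 57.0 ± 11.6, then SLC30A1 with 31.7 ± 5.21, MTF1 with 31.3 ± 4.18 and MT1F with 12.01 ± 3.94. On this per-kb scale SLC30A1 and MTF1 differed by less than their SDs, and the other neighbours in the order lay further apart than either SD. The length counted was every base in an annotated exon, 1299 for MT2A, 1773 for MT1X and 1889 for MT1F. Their longest protein-coding transcripts hold 786, 538 and 690 bases, so the order, with MT2A ahead of MT1X, depends on the length chosen. MT2A, MT1X and MT1F together gave 269 ± 67.4 normalized reads in 6T condition A, 249 ± 36.4 in 6T condition B, 279 ± 43.0 in Luciferase condition A and 269 ± 16.2 in Luciferase condition B (SD, n = 3 each). MT2A made up 47.1% to 59.8% of the reads of these 3 genes in a library.

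**Figure D2:**
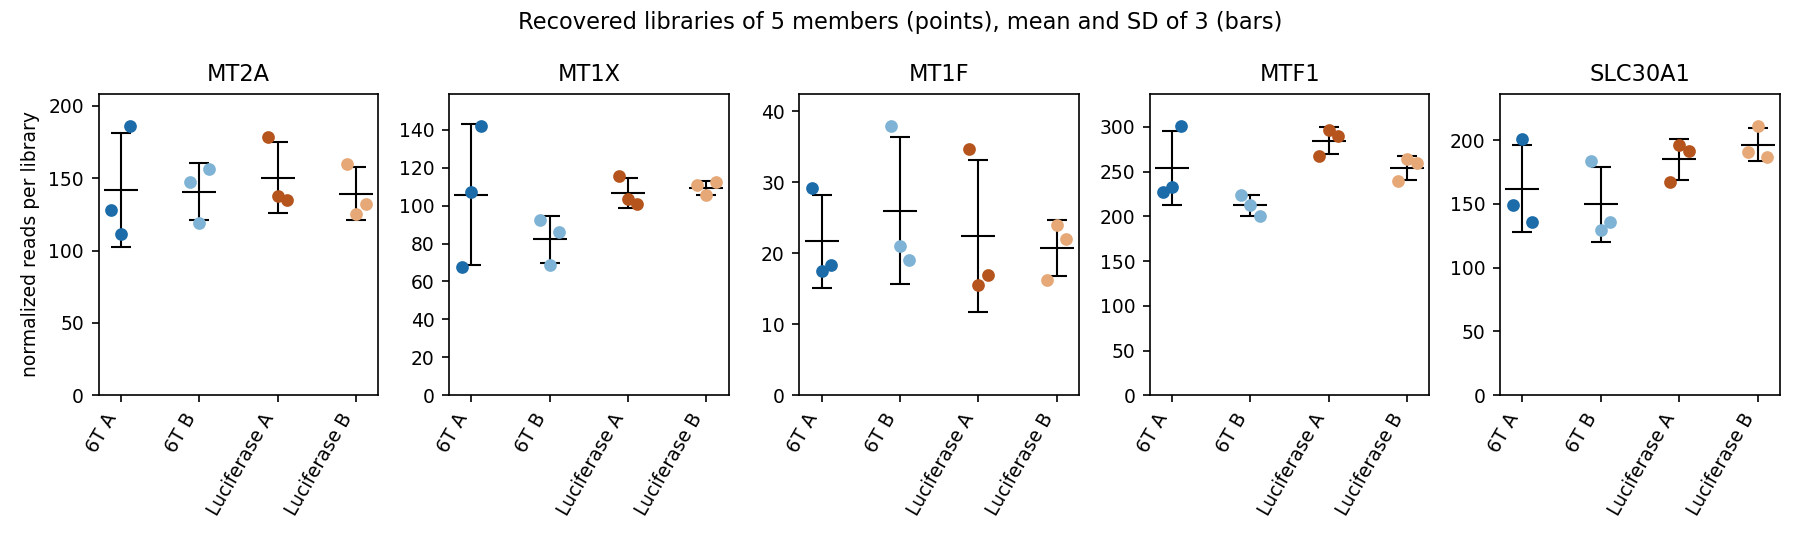
Normalized reads of 5 genes in each recovered library (points) with the mean and SD of 3 (bars), by table and condition, each gene on its own linear axis from 0. MTF1 is lower in condition B than in A in both tables, where the letters may not mean the same, and MT2A overlaps between all groups.

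MT2A, the main inducible human metallothionein, stayed within its spread. In the 6T table it stood at 128, 111 and 186 normalized reads in the libraries of condition A and at 147, 119 and 156 in those of condition B. In the Luciferase table it stood at 178, 138 and 135 in condition A and at 159.9, 125 and 132 in condition B. All groups overlapped, and the highest value, in 6T library A3, came from the group with the widest spread. The group means were 142 ± 39.4, 141 ± 19.6, 150.2 ± 24.5 and 139 ± 18.3 in that order (SD, n = 3 each), where counting reads alone would give SDs of 13.8, 13.9, 14.8 and 7.25.

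MT1X, a metallothionein-1 isoform, varied most within 6T condition A. Its normalized reads there were 67.7, 107 and 142, against 92.5, 68.4 and 86.0 in 6T condition B. In the Luciferase table they were 116, 104 and 101 in condition A and 111, 105 and 112 in condition B. The Luciferase libraries lay close together, while 6T condition A covered both lower and higher values. MT1F, another isoform, was low throughout, at 29.2, 17.5 and 18.4 in 6T condition A and 37.9, 20.9 and 19.1 in 6T condition B. It stood at 34.7, 15.5 and 17.0 in Luciferase condition A and 16.2, 23.9 and 22.003 in Luciferase condition B. It rested on 10 to 25 reads a library outside Luciferase condition B, and all its groups overlapped.

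MTF1, the zinc sensor, was lower in condition B than in A in both tables without overlap. Its normalized reads were 228, 233 and 301 in 6T condition A and 224, 212 and 201 in 6T condition B. In the Luciferase table they were 268, 297 and 289.8 in condition A and 239, 264 and 259.7 in condition B. The gap was narrow in both tables, and A and B may not mean the same in both. SDs were 41.0 and 11.9 in 6T conditions A and B, where counting reads alone would give 18.5 and 17.0. In Luciferase conditions A and B they were 15.3 and 13.2, against 20.5 and 9.93 from counting. Of the 13961 genes with a mean of 10 or more over the 12 libraries, 3.73% lay lower in B without overlap in the 6T table and 9.44% in the Luciferase table. SLC30A1 stood at 149, 201 and 136 in 6T condition A and 184, 129.9 and 136 in 6T condition B. It stood at 167, 196 and 192 in Luciferase condition A and 191, 211 and 187 in Luciferase condition B. Its groups overlapped within each table.

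None of the 7 genes passed an adjusted p of 0.05 between conditions A and B. Of 19246 genes tested in the authors' deposited table for the 6T sgRNA, 8 passed (0.0416%), and 0.868% had an unadjusted p under 0.05. Of 20194 tested in the authors' deposited table for the Luciferase sgRNA, 0 passed (0%), and 1.22% had an unadjusted p under 0.05. For the 6T sgRNA the authors' deposited table gives a fold of 0.994 for MT2A (p = 0.965), 0.779 for MT1X (p = 0.108), 1.20 for MT1F (p = 0.610), 0.836 for MTF1 (p = 0.132) and 0.925 for SLC30A1 (p = 0.509), all with an adjusted p of 1. For the Luciferase sgRNA the authors' deposited table gives 0.927 for MT2A (p = 0.723), 1.03 for MT1X (p = 0.866), 0.926 for MT1F (p = 0.990), 0.892 for MTF1 (p = 0.425) and 1.06 for SLC30A1 (p = 0.762), again with an adjusted p of 1. MT1E has no test there, and MT1G, with its single read, has none in the Luciferase table.

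The recovered libraries bound these differences. With limma on log2(normalized reads + 1), which understates changes of low genes, 0 of 14000 genes passed under the 6T sgRNA (0%, and 2.34% at an unadjusted p under 0.05). Under the Luciferase sgRNA 0 of 13970 passed (0%, and 9.63% unadjusted). MT2A differed by 0.02 in log2 under the 6T sgRNA, with a 95% interval from -0.46 to 0.49, and by -0.11 under the Luciferase sgRNA, from -0.47 to 0.26. MTF1 differed by -0.25, from -0.57 to 0.08, and by -0.16, from -0.41 to 0.08. SLC30A1 differed by -0.11, from -0.55 to 0.33, and by 0.09, from -0.19 to 0.37. MT1X differed by -0.30, from -0.90 to 0.29, and by 0.04, from -0.26 to 0.34. MT1F, the lowest of the 5, had intervals from -0.55 to 0.99 and from -0.78 to 0.72. All 5 genes had a limma adjusted p of 1.00 under the 6T sgRNA, and the smallest under the Luciferase sgRNA was 0.488, for MTF1. Leaving out 1 library of the 6T table, the MT1X difference ran from -0.59 (without A1) to -0.06 (without A3), and the MTF1 difference from -0.32 (without A1) to -0.12 (without A3), and neither gene was called.

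**Figure D3:**
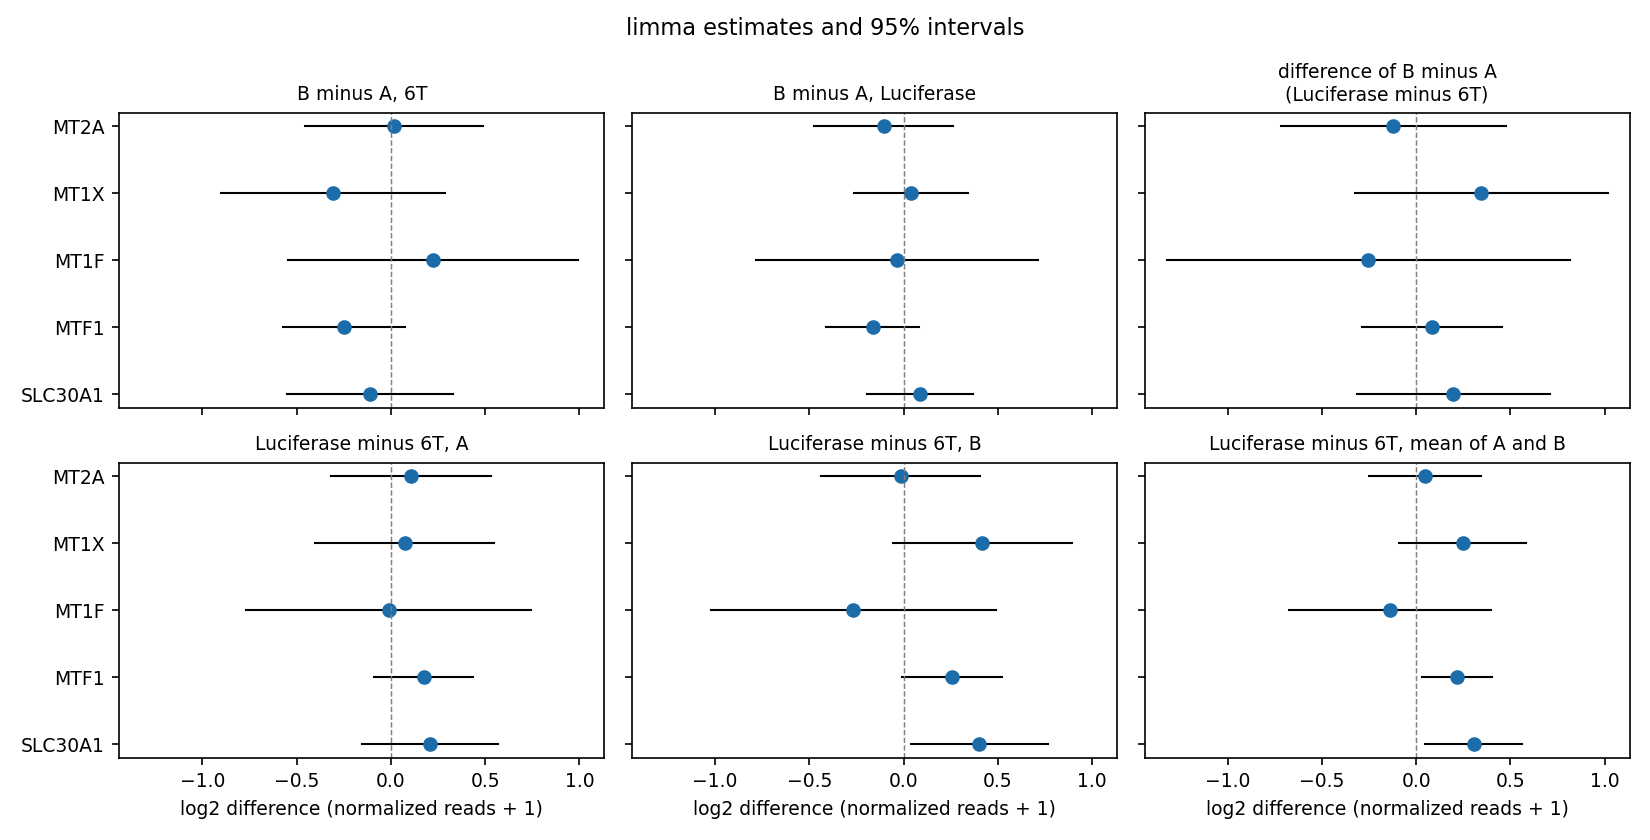
limma estimates (points) and 95% intervals (lines) of the log2 difference for 5 genes in each comparison. Within each table every interval shown includes 0. Between the sgRNAs those of SLC30A1 in condition B and of SLC30A1 and MTF1 over both conditions do not.

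The 2 tables proved to share 1 normalization, so libraries could also be compared between sgRNAs. The letters A and B may not mean the same in both. In condition A no member passed, and 9 of 13961 genes did (0.0645%, and 31.4% at an unadjusted p under 0.05). Each member's libraries overlapped there, while 32.9% of all genes showed no overlap. SLC30A1 was higher by 0.21 in log2 with the Luciferase sgRNA there (limma adjusted p = 0.402) and MTF1 by 0.17 (limma adjusted p = 0.332). In condition B the Luciferase libraries of MT1X, MTF1 and SLC30A1 lay above those of the 6T sgRNA without overlap, as did 6.77% of all genes. Those Luciferase libraries held 19387444 to 38139055 gene reads, against 6650889 to 8287932 with the 6T sgRNA. The sgRNA and depth thus cannot be told apart in condition B. SLC30A1 differed by 0.40, with a 95% interval from 0.04 to 0.76 (limma adjusted p = 0.899). MT1X differed by 0.42, from -0.06 to 0.89 (limma adjusted p = 0.927), and MTF1 by 0.26, from -0.01 to 0.52 (limma adjusted p = 0.925). MT2A differed by -0.01, from -0.44 to 0.41, and MT1F by -0.27, from -1.02 to 0.49. No gene passed in condition B (0%, and 5.42% at an unadjusted p under 0.05). The difference of B against A between the sgRNAs was called for no gene (0%, and 9.38% unadjusted), in the fit with the widest intervals for each member, and the members' limma adjusted p ran from 0.607 for MT1X to 0.844 for MT2A.

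The calls in condition B depended on how libraries were weighted. With limma's default library weights 815 of 13961 genes passed, against 0 without weights. Among the 815 were SLC30A1 at 0.55 (limma adjusted p = 0.0128) and MTF1 at 0.35 (limma adjusted p = 0.0281). That weighting gave a convergence warning. A gene-by-gene weighting, added after these results were seen, gave 49 genes and no member, with SLC30A1 at 0.52 (limma adjusted p = 0.0697) and MTF1 at 0.33 (limma adjusted p = 0.108).

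Averaged over both conditions, a contrast chosen after the values were seen and not affected by the letters, SLC30A1 was higher with the Luciferase sgRNA by 0.30, from 0.05 to 0.56 (limma adjusted p = 0.152). MTF1 was higher by 0.22, from 0.03 to 0.40 (limma adjusted p = 0.161). Neither passed, while 134 genes did (0.96%), and 23.7% had an unadjusted p under 0.05. The deeper libraries of Luciferase condition B are part of this average. Both groups of 6 libraries overlapped for each member, as they did for all but 2.87% of genes. With either library weighting both genes passed: SLC30A1 at 0.44 (limma adjusted p = 0.00203, default) and 0.42 (limma adjusted p = 0.0103, gene-by-gene), and MTF1 at 0.31 (limma adjusted p = 0.00455) and 0.29 (limma adjusted p = 0.0203). Of 13961 genes, the default weighting called 2955 in that contrast and the gene-by-gene weighting 1589, against 134 without weights. The count of 134 genes fell to 11 without Luciferase library B1 and rose to 317 without Luciferase library A2.

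GC content of transcripts moved with these differences across genes. Spearman's rho between GC content and the log2 difference was -0.69 for B against A in the Luciferase table and 0.36 in the 6T table (limma). Between the sgRNAs it was 0.73 in condition A, 0.10 in condition B and 0.62 over both. These are correlations across genes, which are not independent replicates. The longest transcript of SLC30A1 holds 38.0% GC and that of MTF1 46.7%, against 53.7% for MT1X, 53.9% for MT2A and 58.2% for MT1F. The longest protein-coding transcript of MT2A holds 63.0%, so its value depends on the transcript chosen. The genes of 35% to 40% GC had a median difference between the sgRNAs of -0.24 over both conditions, -0.47 in condition A and -0.04 in condition B. SLC30A1 was at 0.30, 0.21 and 0.40 in that order. With a smooth curve of GC content removed, SLC30A1 was at 0.54 over both conditions (limma adjusted p = 0.0276) and MTF1 at 0.27 (limma adjusted p = 0.0888). The share of all genes passing in that fit is not given here, and SLC30A1 did not pass without the removal. The part of GC content in the differences was not tested further.

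**Figure D4:**
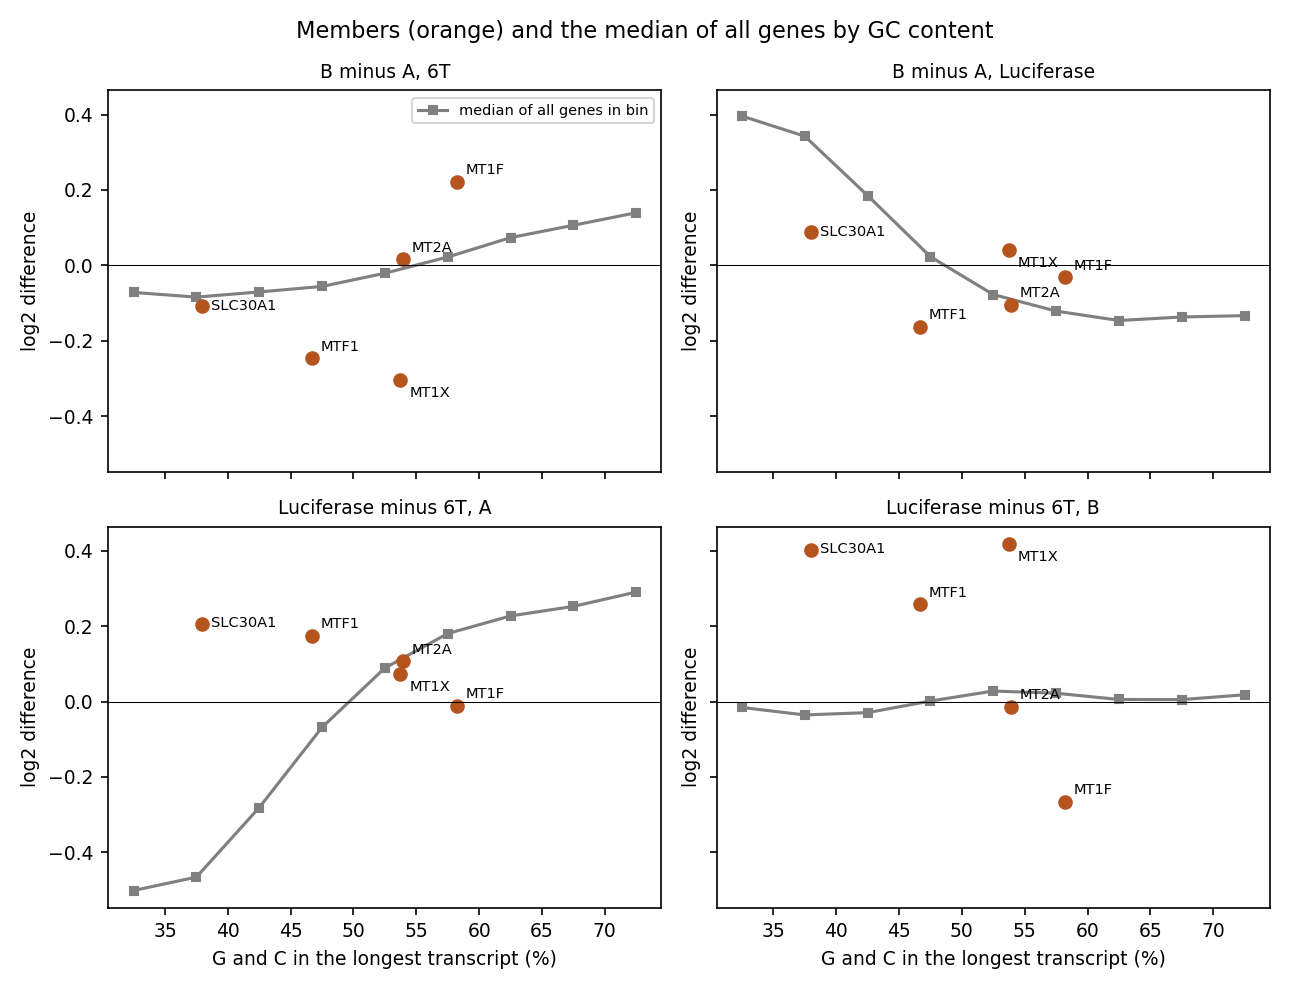
Log2 difference of 5 members (orange) by the GC content of their longest transcript (x axis, %), with the median of all genes in each GC bin (grey). In Luciferase against 6T, the median of genes with 35% to 40% GC is -0.47 in condition A and -0.04 in condition B. SLC30A1 lies at 0.21 and 0.40.

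No gene of the other zinc, copper, iron and stress lists passed in either of the authors' deposited tables, and every gene named from them here has an adjusted p of 1 in both. Levels in these paragraphs are mean normalized reads in condition A and then in condition B, from the authors' deposited tables, and differences are log2 fold changes from the same source. Over all genes with a mean of 10 or more, 5935 were higher and 8116 lower in B with the 6T sgRNA (median -0.03), and 6897 higher and 7190 lower with the Luciferase sgRNA (median -0.01). The members were 1 higher and 4 lower with the 6T sgRNA (median -0.11) and 2 higher and 3 lower with the Luciferase sgRNA (median -0.11).

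The SLC30 family mostly, though not in every member, moves zinc out of the cytosol, and 8 of its 10 genes had a mean of 10 or more. With the 6T sgRNA 1 was higher and 7 were lower in B (median -0.08, values from -0.27 to 0.23). With the Luciferase sgRNA all 8 were higher (median 0.23, values from 0.004 to 0.38). That is the table in which depth and GC content also moved with condition, and their part in it was not tested. SLC30A7, a transporter of the secretory pathway, stood at 212 and 194 with the 6T sgRNA and at 181 and 227 with the Luciferase sgRNA. SLC30A6, also of the secretory pathway, stood at 424 and 419, and at 283 and 367. SLC30A4, which fills vesicles with zinc, stood at 80.7 and 66.8, and at 62.4 and 64.3.

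The SLC39 family brings zinc into the cytosol, and 11 of its 14 genes had a mean of 10 or more. With the 6T sgRNA 3 were higher and 8 lower (median -0.05), and with the Luciferase sgRNA 5 were higher and 6 lower (median -0.07). SLC39A10, an importer of the plasma membrane, stood at 749 and 672 with the 6T sgRNA and at 454 and 649 with the Luciferase sgRNA. SLC39A9, a transporter of the Golgi and plasma membrane, stood at 927 and 819, and at 723 and 843. SLC39A6, another plasma membrane importer, stood at 1117 and 1016, and at 871 and 953.

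Copper binds metallothioneins as well. All 17 copper genes had a mean of 10 or more, 7 higher and 10 lower with the 6T sgRNA (median -0.02) and 11 higher and 6 lower with the Luciferase sgRNA (median 0.02). ATP7A, the copper-exporting ATPase, stood at 238 and 205, and at 139 and 205 with the Luciferase sgRNA. COX19, a factor of cytochrome oxidase assembly, stood at 363 and 348, and at 422 and 314. ATOX1, a copper chaperone, stood at 293 and 352, and at 313 and 331. SCO1, which delivers copper to cytochrome oxidase, stood at 747 and 643, and at 619 and 675.

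All 11 iron genes had a mean of 10 or more, 3 higher and 8 lower with the 6T sgRNA (median -0.11) and 6 higher and 5 lower with the Luciferase sgRNA (median 0.07). TFRC, the transferrin receptor, stood at 1506 and 1079, and at 1216 and 1333. NCOA4, the ferritin receptor of autophagy, stood at 1591 and 1400.03, and at 1192 and 1403. IREB2, an iron regulatory protein, stood at 1439 and 1329, and at 924 and 1238, and FBXL5, which directs its degradation, at 273 and 253, and at 192 and 263.

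Metals and oxidants also induce heme, glutathione and chaperone genes. Of 12 such genes, 11 had a mean of 10 or more with the 6T sgRNA, 3 higher and 8 lower (median -0.06), and 12 with the Luciferase sgRNA, 9 higher and 3 lower (median 0.17). HMOX1, the heme-degrading enzyme, stood at 964 and 925, and at 1267 and 972. It alone in these lists had an unadjusted p under 0.05 in an authors' deposited table, that for the Luciferase sgRNA. Of all 20194 genes tested there, 1.22% had one, so a single such gene among these lists does not set HMOX1 apart. GCLM and GCLC encode the subunits of the enzyme that starts glutathione synthesis. GCLM stood at 271 and 339 with the 6T sgRNA and at 288 and 322 with the Luciferase sgRNA, and GCLC at 459 and 373, and at 329.6 and 394. HSPH1, a heat shock chaperone, stood at 1235 and 1076, and at 753 and 1189.

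Glucocorticoids also induce MT2A, and all 8 genes of that response had a mean of 10 or more. With the 6T sgRNA 2 were higher and 6 lower (median -0.08), and with the Luciferase sgRNA 3 were higher and 5 lower (median -0.06). DUSP1, a MAP kinase phosphatase, stood at 573 and 735, and at 755 and 546. FKBP5, a co-chaperone of the receptor, stood at 1113 and 1012, and at 900 and 993, and NR3C1, the receptor, at 334 and 314, and at 248 and 303.

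Across the 12 libraries, which also differ in depth and GC trend, MT1X, MT2A, MTF1 and SLC30A1 were correlated to differing degrees. Pearson's r of log2(normalized reads + 1) was 0.70 between MT1X and MTF1, 0.53 between MT1X and MT2A and -0.31 between MT2A and SLC30A1. It was 0.37 between SLC30A1 and each of MT1X and MTF1, and 0.30 between MT2A and MTF1. Among 11610 genes with a mean of 50 or more, the patterns most like MT2A were those of FRAT1 (r = 0.947), CAMK2G, GBA2, ZNF783 and SIPA1 (r = 0.888). RAP2B, EXOSC4, NFATC2IP, MICA and PNMAL1 were the most like MT1X, with r from 0.855 to 0.882. IFFO2, SVIL, DRP2, SNRNP200 and TRAK1 were the most like MTF1, from 0.864 to 0.883. HSPA2, NOM1, FAM83D, TNFRSF10D and PLD6 were the most like SLC30A1, from 0.901 to 0.944.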

How the data were processed

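PolyA RNA libraries of HEK293T cells were prepared with an mRNA kit from VAHTS, as the labels' protocols state. STAR (alignment), HTSeq (counting), DESeq (comparison) and the build hg38 are named, without versions, in the submitters' processing notes. The deposited signal values are means of normalized counts over the libraries of a condition, per the file headers. The authors' deposited columns further hold the ratio of B over A (fold change), its log2, and the DESeq p-value with its adjusted value.

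Whole reads per library were recovered, since a low mean is a sum of whole multiples of 3 steps, 1 per library. A single solution was found for 99.4% to 99.8% of genes above 0. Genes without one, taken at their mean, held 9.02% to 16.1% of a library's reads. Their size factors lay within 0.0864% of the median-of-ratios factors of all 12 libraries, and up to 36.7% away from those of a single table.

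The log2(normalized reads + 1) values were fitted with limma (3.58.1, R 4.3.3) and its mean-variance trend for genes with a mean of 10 or more, over 6 libraries within a table and 12 between tables, with Benjamini-Hochberg adjustment over all genes and a threshold of 0.05. Search and fit were tested on simulated data. There the fit of the difference of B against A between the sgRNAs recovered fewer of the changed genes than the other fits. The number required to pass was lowered after this was seen. Leaving out libraries, other scalings, filters, pseudocounts, GC and length corrections and library weights were tried. Named pathway genes were those with the smallest authors' p in each table among genes with a mean of 50 or more, 2 per list, leaving out the members, since they are described separately. Likeness was the highest Pearson correlation over 12 libraries. The members and lists were chosen with earlier results of these data known. Gene positions are from GENCODE. The result of 1 marker list is not reported here.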

Additional observations from a re-analysis of the deposited data

How the results depend on the processing

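No paired analysis was possible because the recovered libraries carry no replicate number from the labels. None of the members was called within either table under any setting, and 0 genes were called there in the limma fits, except 3 with all 12 libraries in the 6T fit. limma called 0 genes where the authors' test called 8 under the 6T sgRNA. Depth limits MT1F most, and for the silent genes nothing below the limit of 3 reads is measured.

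Between sgRNAs the count of genes called was fragile. In condition A, 9 genes became 14 (pseudocount 5), 94 (mean of 50 or more), 284 (reads scaled to the library total), 727 (upper quartile), 458 (length smooth removed), 3500 (default library weights) and 1685 (gene-by-gene weights), and 0 to 1023 with a library left out. The 1023 came without Luciferase library A2, and 0 without 6T library A1, 6T library A3 or Luciferase library A1. In condition B, 0 genes became 1 (GC smooth removed), 815 with 2 members (default weights) and 49 (gene-by-gene weights), and 0 to 1 with a library left out. The difference of B against A between the sgRNAs went from 0 genes to 892 (default weights). Over both conditions 134 genes became 303 (library total), 381 (upper quartile), 301 (length), 2955 (default weights) and 1589 (gene-by-gene weights), and 11 to 317 with a library left out. There, 2 members passed with either weighting. With the GC smooth removed 1 member passed, SLC30A1, in a fit whose share of all genes passing is not given here. The default weights were planned and gave a convergence warning in all 4 fits. The gene-by-gene weights were added after the default results had been seen.

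Signs of uncalled differences changed near 0. In B against A of the 6T table MT2A was -0.055 (length) and its sign differed between limma, 0.016, and the authors' test. In the Luciferase table MT1X was -0.023 (upper quartile), MT1F 0.099 (GC) and 0.013 (length), and SLC30A1 -0.24 (GC). Between sgRNAs in condition A, MT1F was 0.0054 (library total) and 0.074 (upper quartile), MT1X -0.042 and MT2A -0.012 (GC). In condition B, MT2A was 0.049 (length) and MT1F 0.12 (default weights) and 0.044 (gene-by-gene weights). For the difference of B against A between the sgRNAs, MTF1 was -0.015 (GC) and -0.073 (length), SLC30A1 -0.21 (GC), MT2A 0.011 (length) and MT1F 0.64 and 0.51 (default and gene-by-gene weights). Over both conditions MT2A was -0.023 (GC), -0.097 (default weights) and -0.084 (gene-by-gene weights).

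With a library left out, the 6T differences ran from -0.074 to 0.45 for MT1F, -0.14 to 0.23 for MT2A, -0.26 to 0.055 for SLC30A1, -0.59 to -0.062 for MT1X and -0.32 to -0.12 for MTF1. The Luciferase differences ran from -0.24 to 0.32 for MT1F, -0.00061 to 0.099 for MT1X and -0.21 to 0.024 for MT2A. Between sgRNAs in condition A they ran from -0.36 to 0.21 for MT1F, -0.21 to 0.32 for MT1X and -0.049 to 0.32 for MT2A. In condition B they ran from -0.45 to 0.031 for MT1F and -0.13 to 0.066 for MT2A. For the difference of B against A between the sgRNAs, they ran from -0.48 to 0.097 for MT1F, -0.33 to 0.035 for MT2A and -0.045 to 0.16 for MTF1. Over both conditions they ran from -0.31 to 0.0097 for MT1F and -0.032 to 0.15 for MT2A.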
